A study of Danio rerio with 2 samples.

Results

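A set of 9 regulators of the zebrafish egg was looked up by name in the ovary transcriptomes: the oocyte transcription factors *figla* and *nobox*, the regulators of stored mRNA *zar1*, *cpeb1b*, *ybx1*, *lsm14b* and *eif4enif1*, and the maternal pluripotency factors *pou5f3* and *nanog*. The deposited table lists 22328 genes, and 8 of the 9 names were found in it. No gene ID in the name table used here carries the name *nobox*, so *nobox* was not analysed here. All 8 genes found were abundant, from 36.67 to 934.38 FPKM, and 0 of 8 differed by 1.4-fold or more between the library labelled knockout and the library labelled wild type. Of all genes from 30 to 1000 FPKM 13.0% did, so a count of 0 among 8 is near the background.

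Ovary RNA of adult zebrafish of the AB strain was compared between wild type fish (*sox3*+/+) and homozygous *sox3* knockout fish (*sox3*-/-). RNA of 3 fish of each genotype was made into 1 library, which the labels call a mix, so there is no replicate of either genotype and no difference below can be set against the spread between fish. No p-value is given for that reason. The study made 2 mutant lines by CRISPR/Cas9, *sox3* f7 and *sox3* f40, both with frame-shift deletions, and which of them went into the knockout library is not named in the sources used here. Whole ovaries were used, in which oocytes of all stages lie beside granulosa, theca and stromal cells. Fewer cells of a type and less RNA per cell therefore cannot be told apart. The study's histology found fewer follicles of stages III and IV in *sox3*-/- ovaries, and no significant difference in stages I and II. The part of this mix of stages in the values below was not tested. Values are FPKM, read fragments per gene divided by the length of the transcript and by the size of the library, and can be compared between genes within a library. Since the table holds no read counts, the counting error of a single value is unknown.

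A growing oocyte makes large amounts of mRNA and keeps much of it untranslated, with a short poly(A) tail, until it matures or the egg is fertilised. RNA-binding proteins such as Zar1, Cpeb1, Ybx1 and Lsm14b hold these messages in silent particles, and 4E-T, the product of *eif4enif1*, binds the cap-binding protein eIF4E and keeps it from the translation machinery. Figla and Nobox are transcription factors that switch on oocyte genes early in follicle growth, as known from mouse. Pou5f3 and Nanog are made from maternal mRNA in the zebrafish embryo and, with the SoxB1 factor Sox19b, open the embryonic genome. Libraries were selected on oligo(dT) by their poly(A) tails, so the values are of polyadenylated transcripts and say nothing of their translation. Whether tail length altered any value was not tested.

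The libraries were alike in their median levels, while markers of several cell types differed, as given below. In what follows the first of a pair of values is always from the library labelled wild type, and the second from that labelled knockout. Medians over the listed genes were 2.01 and 1.94 FPKM. The targeted gene *sox3* (ENSDARG00000053569) had levels of 1.18 and 2.16 FPKM. A knockout by a frame shift need not lower the transcript, but this order goes against the lower *sox3* of the study's quantitative PCR, so the libraries are called by their labels and each direction below is that of the labels. The aromatase gene *CYP19A1*, taken for *cyp19a1a*, had levels of 2.04 and 1.12 FPKM. In the quantitative PCR it was lower in the knockout, the order that the labels give. Both genes lie near the minimum of 1 FPKM used below and have 1 library per genotype, so they do not settle the labels. All 8 oocyte markers, among them *gdf9*, *buc* and *zp3b*, were at 1 FPKM or more, none differed by 1.4-fold, and their summed level was 4381 and 4091 FPKM in turn. Markers of other cells were mostly low. Exceptions were *CYP11A1* (ENSDARG00000002347) at 105.49 and 153.47 FPKM and *CYP17A1* at 30.73 and 48.96 FPKM, both of the theca and interstitial list. The 4 of 7 granulosa cell genes at 1 FPKM or more summed to 15.3 and 9.86 FPKM, and 3 of these 4 were lower by 1.4-fold in the library labelled knockout. Of all genes at 1 FPKM or more, 15.1% were higher and 17.5% lower by 1.4-fold. The 4 granulosa cell genes were low in level, the highest being *gsdf* at 6.62 and 4.36 FPKM. The receptor gene *FSHR* of that list was near the smallest listed value, at 0.07 and 0.01 FPKM. The 4 theca and interstitial cell genes at 1 FPKM or more summed to 140.6 and 204.6 FPKM, with 2 higher and 2 lower by 1.4-fold. Higher were the abundant *CYP11A1* and *CYP17A1*. Lower were *STAR* at 1.88 and 0.46 FPKM and *NR5A1* (ENSDARG00000103176) at 2.49 and 1.67 FPKM. *STAR* passed the minimum of 1 FPKM only through the library labelled wild type, where it was the higher. Of the 7 theca and interstitial genes found, 3 were under 1 FPKM in both libraries. They were a second *CYP11A1* (ENSDARG00000092696) at 0.37 and 0.16 FPKM, *lhcgr* at 0.13 and 0.09 FPKM and a second *NR5A1* at 0.04 and 0.07 FPKM. Stroma genes summed to 15.1 and 14.8 FPKM and immune cell genes to 5.09 and 5.47 FPKM. Of the blood genes the globin *hbaa1* alone passed 1 FPKM, at 12.8 and 23.05 FPKM. Of the 6 testis genes *DMRT1* alone did, at 1.3 and 0.8 FPKM, and only under the label wild type. The part of these cells in the results below was not tested.

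Differences are log2 ratios, knockout value over wild type value, with 0.1 FPKM added to each. For a background, 13455 genes reached 1 FPKM in 1 library or both, and 32.6% of them were at least 1.4-fold apart, the fold threshold of the study, and 14.2% at least 2-fold apart. The study also set a limit on the false discovery rate, which was not applied here, so these shares are not its counts of differing genes. Genes of high level were closer. In the band from 30 to 1000 FPKM by the higher value, which held 3881 genes and was set after the values of the 8 regulators were known, 13.0% were at least 1.4-fold apart and 3.04% at least 2-fold. Of the 8 regulators 0 passed either threshold. The median of their log2 ratios was -0.02, and that of all 13455 genes was also -0.02. Within 1.1-fold lay 5 of the 8, against 39.4% of the genes in the band.

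**Figure D1:**
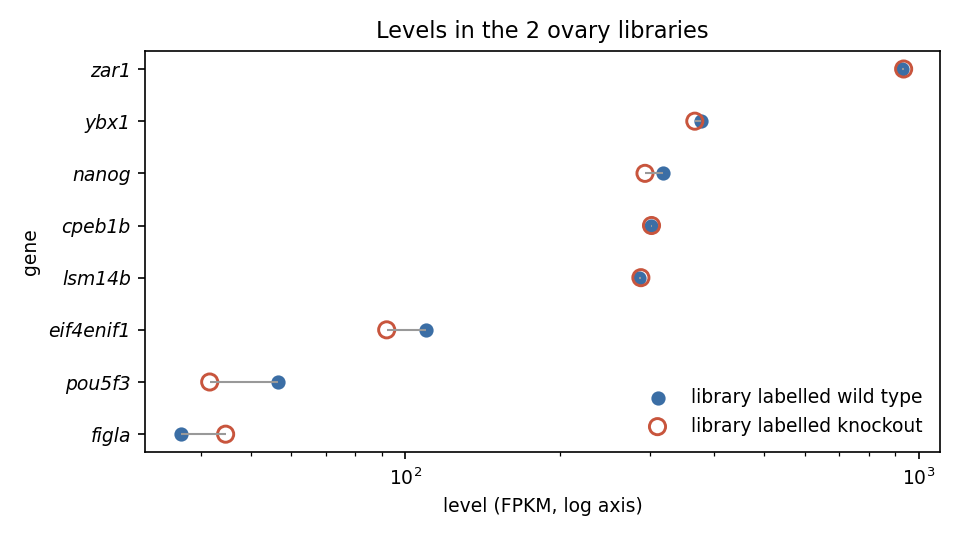
Level of each regulator in FPKM on a log axis, with a filled point for the library labelled wild type and an open circle for the library labelled knockout, 1 library each. The points of *zar1*, *cpeb1b* and *lsm14b* lie on each other, and the widest gap is that of *pou5f3*, from 56.61 to 41.62 FPKM.

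*zar1* (listed as ZAR1, ENSDARG00000019706), an RNA-binding protein gene needed for zebrafish oogenesis, had the highest level of the 8, at 928.35 and 934.38 FPKM. Its log2 ratio was 0.01. By level it stood at rank 87 and at rank 80 of all listed genes. Its paralogue *zar1l* (listed as ZAR1L) was at 608.3 and 733.98 FPKM, a log2 ratio of 0.27. The level of *zar1* was thus 1.53 and 1.27 times that of *zar1l*.

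*ybx1* (listed as YBX1, ENSDARG00000004757) encodes a Y-box protein with a cold shock domain, a major coat protein of stored mRNA, which in zebrafish also restrains translation of nodal signalling mRNA in the early embryo. It was at 375.92 and 366.35 FPKM, with a log2 ratio of -0.04 that changed sign, to 0.01, with trimmed mean scaling. The difference, -2.55% of the wild type value, is therefore too small to have a direction.

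*cpeb1b* encodes a protein that binds the cytoplasmic polyadenylation element, a short U-rich signal of stored messages, first represses them and at oocyte maturation promotes lengthening of their tails. The gene taken for it (ENSDARG00000008454) is listed as CPEB1, the human symbol, and was matched because *cpeb1a* has an entry of its own. Its level was 300.46 and 301.71 FPKM and its log2 ratio 0.01, the smallest of the 8 in size. This gene held nearly all of the CPEB1 transcripts, since *cpeb1a* was at 1.31 and 0.95 FPKM. *CPEB4*, taken for *cpeb4a*, came next in the family with 101.6 and 105.62 FPKM. *cpeb4b* was at 5.66 and 6.12 FPKM and *CPEB3* at 2.37 and 1.26 FPKM, while *CPEB2* was listed at 0.01 and 0.07 FPKM. Of the summed level of the 6 CPEB genes, *cpeb1b* made up 73.0% and 72.6%.

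*lsm14b* (listed as LSM14B, ENSDARG00000025386), of the Lsm14 family of RNA particle proteins that bind 4E-T and the helicase Ddx6, was at 285.44 and 287.66 FPKM, a log2 ratio of 0.01. Its paralogues were lower in level. *lsm14aa* was at 77.31 and 93.86 FPKM, and the gene listed as LSM14A, taken for *lsm14ab*, was at 37.47 and 42.59 FPKM. The share of *lsm14b* in the family sum was 71.3% and 67.8%, with a log2 ratio of 0.28 for *lsm14aa* and 0.18 for LSM14A. Whether reads are shared between paralogues could not be examined, since no sequences were at hand.

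**Figure D2:**
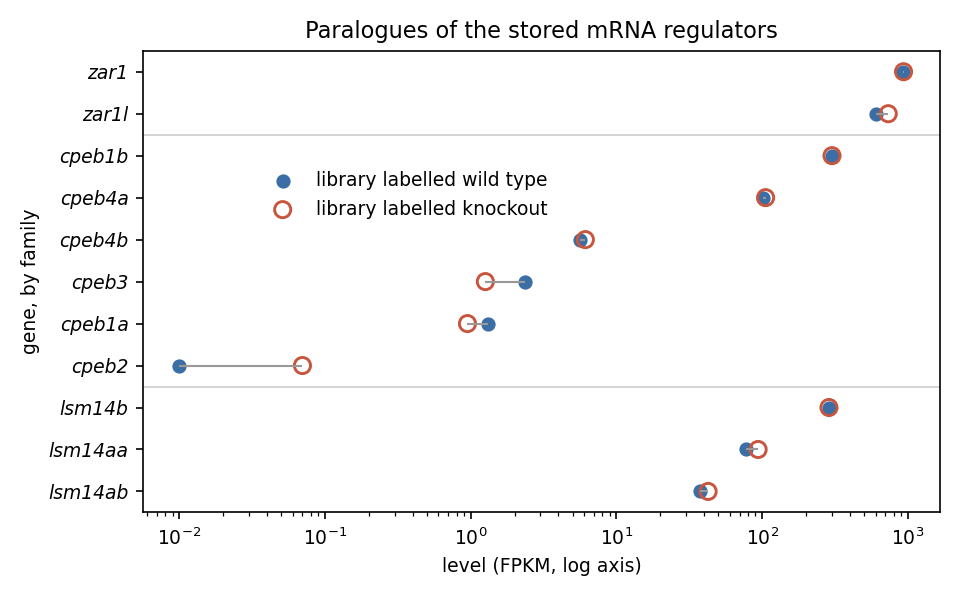
Level in FPKM on a log axis of the genes of the ZAR1, CPEB and LSM14 families, filled points for the library labelled wild type and open circles for the library labelled knockout. *zar1*, *cpeb1b* and *lsm14b* are the highest of their families in both libraries, and *cpeb2* at 0.01 and 0.07 FPKM is near the smallest listed value.

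*eif4enif1* (ENSDARG00000016177) was the lowest of the stored mRNA regulators, at 109.61 and 92.03 FPKM. The difference was -16.0% of the wild type value, a log2 ratio of -0.25, and stayed below 0 under every pseudocount and scaling tried. Of the 765 genes within 0.5 on the log2 scale of its level, 27.6% were at least as far from equal. The oocyte form of its cap-binding partner, *EIF4E1B*, was at 88.46 and 82.31 FPKM, and the general form listed as EIF4E was at 49.27 and 43.42 FPKM. The level of *eif4enif1* was 1.24 and 1.12 times that of *EIF4E1B*.

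Summed over the 5 stored mRNA regulators, the level was 1999.8 and 1982.1 FPKM. Apart from *eif4enif1*, 4 of the 5 lay within 1.1-fold. Among genes near the level of each of these 4, from 92.4% for *ybx1* to 99.4% for *cpeb1b* were at least as far from equal.

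Of the oocyte transcription factors, *figla* (ENSDARG00000087166), a helix-loop-helix factor that drives egg envelope genes in mouse, was at 36.67 and 44.7 FPKM. The value labelled knockout was 21.9% higher, and the log2 ratio of 0.28 was the highest of the 8, at 0.28 to 0.33 over the pseudocounts and scalings tried. At least as far from equal were 31.5% of the 2054 genes within 0.5 of its level on the log2 scale. By level it stood at rank 3061 and rank 2412 among all listed genes.

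*pou5f3* (ENSDARG00000044774), a POU factor related to mammalian Oct4, was at 56.61 and 41.62 FPKM. With a log2 ratio of -0.44, a difference of -26.5% of the wild type value, it was the farthest from equal of the 8 and still within 1.4-fold, at a fold of 1.36. At its level, 13.3% of 1833 genes were at least as far apart. *nanog* (ENSDARG00000075113), a homeodomain factor, was at 318.01 and 293.02 FPKM, a log2 ratio of -0.12. The median of the 179 genes at its level was also -0.12, and 68.2% of them were at least as far from equal. The level of *nanog* was 5.62 and 7.04 times that of *pou5f3*. In the same libraries *sox19b* was at 56.66 and 36.0 FPKM, a log2 ratio of -0.65, so that its first value was nearly that of *pou5f3*.

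The order of levels was nearly the same in both libraries. *zar1* came first and *ybx1* next in each, and *lsm14b* came before *eif4enif1*, at 2.60 and 3.13 times its level. *nanog* stood above *cpeb1b* under the label wild type and below it under the other. The level of *pou5f3* was 1.54 times that of *figla* under the label wild type and 0.93 times under the label knockout. With 1 library per genotype there is no spread by which neighbours in this order can be told apart.

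**Figure D3:**
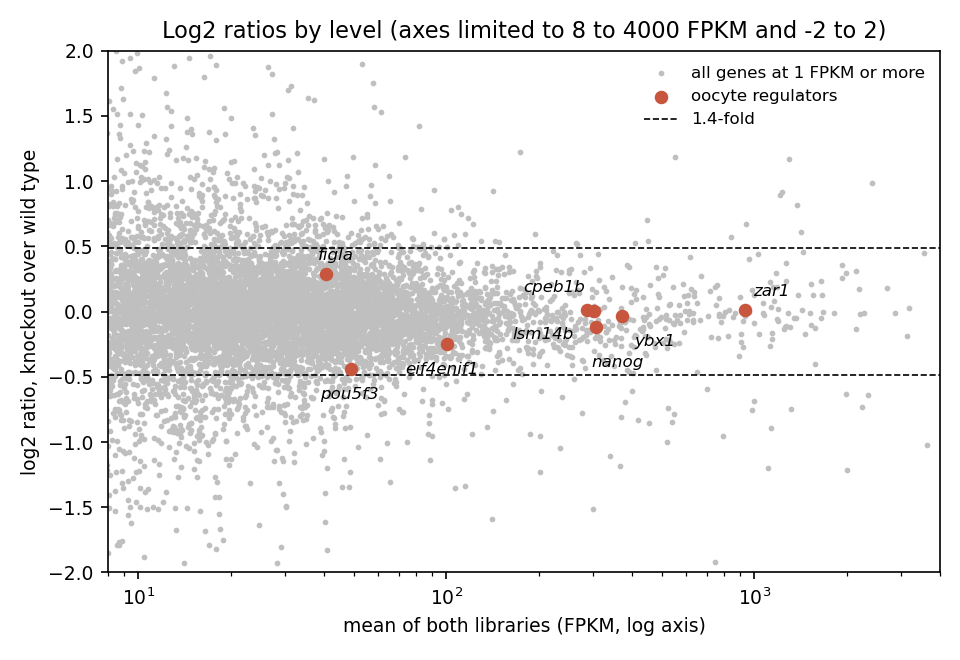
Log2 ratio of knockout over wild type against the mean of both libraries in FPKM (log axis), grey for genes that reach 1 FPKM and red for the 8 regulators, with dashed lines at 1.4-fold. All red points lie between the dashed lines, from -0.44 for *pou5f3* to 0.28 for *figla*, and the axes leave out genes outside the range in the title.

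The genes most like each regulator in level in both libraries were taken from 6 lists of related function, by the distance of log2(FPKM + 0.1) over the 2 libraries. For *cpeb1b* the nearest was *PABPC1L*, the poly(A)-binding protein of the oocyte, at 286.18 and 309.48 FPKM and a distance of 0.08, and next came *nanog*. *lsm14b* had *cpeb1b* as its nearest, at a distance of 0.10. *pou5f3* was nearest to *TOB1*, at 54.7 and 42.2 FPKM and a distance of 0.05, with *sox19b* next at 0.21. *figla* was nearest to LSM14A at 0.08. *zar1* was nearest to *CCNB1*, the cyclin of oocyte maturation, at 866.26 and 841.56 FPKM and a distance of 0.18. Over 2 libraries such nearness is mainly nearness in level.

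Of 113 genes of the 6 lists that reached 1 FPKM and are not among the 8 regulators, 7 were higher and 7 lower by 1.4-fold in the library labelled knockout, and 1 was lower by 2-fold. The gene lower by 2-fold was *lhx8b*, at 1.62 and 0.58 FPKM, which reached 1 FPKM only under the label wild type. Within 1.1-fold lay 56 of the 113 (49.6%), and the median log2 ratio was 0.05. That close were 27.3% of all 13455 genes and 39.4% of those from 30 to 1000 FPKM. Of all 13455 genes 15.1% were higher and 17.5% lower by 1.4-fold, and 7.89% lower by 2-fold. Most genes of these lists are abundant, however, and in the band from 30 to 1000 FPKM the share past 1.4-fold in either direction was 13.0%, near that of the 14 of 113. The counts past 1.4-fold therefore show nothing particular to the lists, which also share members. Why a larger share lay within 1.1-fold was not tested.

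Among 7 measured oocyte transcription factors at 1 FPKM or more, *figla* included, 1 was higher and 1 lower by 1.4-fold (median 0.02). Of all 13455 genes, 15.1% were higher and 17.5% lower, so these counts are near the background. *LHX8*, taken for *lhx8a*, a LIM homeodomain factor of the early oocyte, was the highest in level at 135.77 and 140.67 FPKM. *foxr1* was at 52.14 and 52.79 FPKM, and *TBPL2*, the TATA-binding protein of oocytes, at 39.86 and 37.64 FPKM. *foxo3a*, of the forkhead factors that hold follicles dormant in mouse, was higher at 9.5 and 14.88 FPKM. *lhx8b* was lower at 1.62 and 0.58 FPKM, near the minimum of 1 FPKM, and not counted with a minimum of 5 FPKM. *taf4b*, a subunit of the general factor TFIID, was at 12.43 and 11.84 FPKM. *sohlh1* was not matched.

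Counterparts of genes linked to Figla or Nobox in mouse gave 9 at 1 FPKM or more, *zar1* and *pou5f3* included. Of these 0 differed by 1.4-fold, against 13.0% of the genes from 30 to 1000 FPKM. Of the 9 log2 ratios 8 were below 0 (median -0.13), and trimmed mean scaling added 0.05 to each. Below 0 were also 2113 of the 3881 genes in the band from 30 to 1000 FPKM, whose median was -0.03. That band leaves out *h1m*, *zp3a.1* and *zp3b* of this list, which lay above it. It also leaves out *gdf9*, which lay under it at 26.6 and 25.65 FPKM. Among genes of about the level of each regulator, medians ran from -0.12 at the level of *nanog* to -0.01 at that of *figla*. Why this list leaned lower was not tested. *h1m*, the maternal linker histone, was at 2230.19 and 2035.89 FPKM and the envelope gene *zp3a.1* at 1585.36 and 1472.92 FPKM. *zp3b* was at 1099.71 and 978.14 FPKM, a log2 ratio of -0.17. *npm2b*, a nucleoplasmin of the egg, was at 350.23 and 319.46 FPKM, *bmp15*, an oocyte growth factor, at 93.64 and 87.93 FPKM, and *npm2a* at 61.21 and 55.42 FPKM. The receptor and ligand genes *KIT* and *kitlga* were under 1 FPKM in both libraries.

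In the list of mRNA storage and repression, 40 genes were at 1 FPKM or more. Their median log2 ratio was 0.10, with 27 above 0 and 13 below. In the band from 30 to 1000 FPKM, 1766 of 3881 genes were above 0, and 31 of the 40 reached 30 FPKM. Why this list leaned higher was not tested. Past 1.4-fold in either direction were 13.0% of the genes from 30 to 1000 FPKM. Of the 40 genes, 2 were higher and 1 lower by 1.4-fold. Among the higher was *STAU1*, a double-stranded RNA-binding protein of mRNA transport, at 29.54 and 48.26 FPKM. The lower one was *CPEB3*. Close to the 1.4-fold limit on the lower side was *cpeb1a*, with a log2 ratio of -0.43. *RBPMS2* (ENSDARG00000079578), an RNA-binding protein of the germ plasm, was among the most abundant at 337.5 and 433.31 FPKM, a log2 ratio of 0.36. Another gene under RBPMS2 (ENSDARG00000045930) was at 53.26 and 51.46 FPKM, a log2 ratio of -0.05. *patl2*, the oocyte form of a decapping cofactor, had 313.75 and 378.02 FPKM, while *DDX6*, the helicase that joins Lsm14 and 4E-T in such particles, was at 8.75 and 6.69 FPKM.

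Of 24 genes of cytoplasmic polyadenylation and of its control at maturation, 2 were higher and 1 lower by 1.4-fold (median -0.05). Of the 24, 20 reached 30 FPKM, and 13.0% of genes from 30 to 1000 FPKM were that far apart. *CPSF1*, a subunit of the cleavage and polyadenylation factor, was higher at 23.6 and 34.06 FPKM. *pabpc1b* was higher at 3.39 and 4.83 FPKM, and not by 1.4-fold with a pseudocount of 1 FPKM. *fip1l1a*, another subunit of that factor, was lower at 23.83 and 14.71 FPKM, while its paralogue *fip1l1b* was at 61.57 and 57.86 FPKM. *TENT2*, the cytoplasmic poly(A) polymerase that works with Cpeb1 in frog oocytes, was at 53.11 and 63.04 FPKM. The most abundant genes of this list were close to equal, with *CCNB1* at a log2 ratio of -0.04, *pabpc1a* at 619.48 and 592.13 FPKM and *parn*, a deadenylase, at 326.43 and 349.21 FPKM.

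Of 33 genes of deadenylation and mRNA clearance, 0 were higher and 2 lower by 1.4-fold (median 0.09). Above 0 were 21 of the 33 log2 ratios, and 11 were below. Of the 33, 19 reached 30 FPKM. In the band from 30 to 1000 FPKM, 13.0% of genes passed 1.4-fold, and 1766 of 3881 were above 0. Why this list leaned higher was not tested. *BTG4*, which calls the deadenylase complex to maternal mRNA, was the highest at 558.75 and 577.18 FPKM. The 2 lower genes had low levels, *DCP1B*, a decapping cofactor, at 2.76 and 1.78 FPKM and a gene under ZFP36L1 (ENSDARG00000021443) at 1.99 and 1.13 FPKM. Another gene under ZFP36L1 (ENSDARG00000016154) was at 45.19 and 47.95 FPKM, a log2 ratio of 0.09. *ZFP36L2*, a zinc finger protein of mRNA decay, was at 58.93 and 82.51 FPKM, a log2 ratio of 0.48, which passes 1.4-fold under either scaling and under a pseudocount of 0.01 FPKM. *TOB1*, taken for *tob1a*, which brings that complex to its targets, had a log2 ratio of -0.37. Its paralogue *tob1b* was at 44.12 and 42.73 FPKM, a log2 ratio of -0.05.

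The factors of embryonic genome activation went both ways. Of 13 genes at 1 FPKM or more, *pou5f3* and *nanog* included, 2 were higher and 2 lower by 1.4-fold, and 4 were within 1.1-fold (median 0.01). Of all 13455 genes, 15.1% were higher and 17.5% lower by 1.4-fold, and 27.3% lay within 1.1-fold. The counts of this list are thus near the background. Lower were *sox19b* and *mych*, a Myc gene, at 19.12 and 12.27 FPKM. Higher were *EOMES*, taken for *eomesa*, a maternal T-box factor, at 24.71 and 42.38 FPKM, and *POU2F1*, an octamer-binding factor, at 1.91 and 3.53 FPKM. *foxh1*, a forkhead factor of nodal signalling, was at 29.03 and 33.09 FPKM. The other SoxB1 genes of the list, *sox19a* and *SOX2*, were under 1 FPKM in both libraries.

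**Figure D4:**
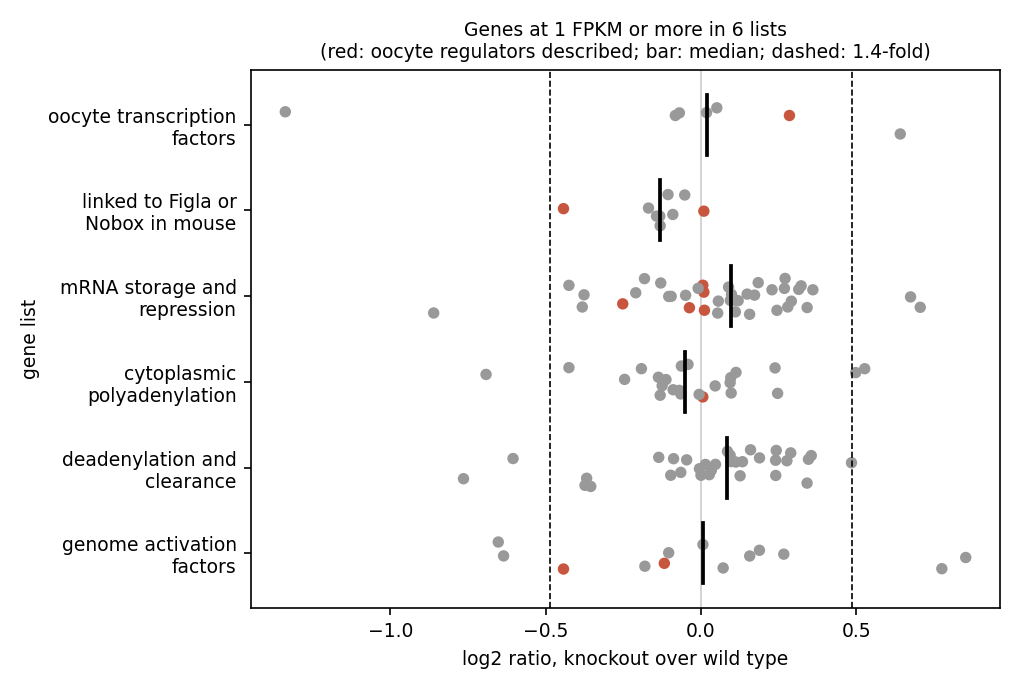
Log2 ratio of knockout over wild type for the genes at 1 FPKM or more in the 6 lists, 1 point per gene, red for the regulators described and grey for the others, with a bar at the median and dashed lines at 1.4-fold. Medians lie from -0.13 for genes linked to Figla or Nobox in mouse to 0.10 for mRNA storage and repression, and the red points lie inside the dashed lines in each list.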

How the data were processed

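The authors enriched poly(A) RNA from adult ovaries, sequenced it on a BGISEQ-500 as single-end reads of 50 bases, aligned them to the genome (HISAT) and to the reference genes (Bowtie2), and used RSEM for FPKM. GRCz10 is the build in the submitters' processing notes. Tool versions are not stated there. The deposited FPKM table holds 1 value per gene and library, with a smallest value of 0.01, and no counts, so no interval was attached to a value.

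Names came from a table that gave a symbol to 20336 of the 22328 IDs. Zebrafish names were looked for as written, then in capitals, and last without the closing letter of the paralogue. Log2 ratios used a pseudocount of 0.1 FPKM, and genes were counted at 1 FPKM or more in either library. No test was run with 1 library per genotype. The members and the 6 lists were chosen with earlier results of these data known. Genes named are the 8 regulators, *sox3*, paralogues, in each list up to 4 genes with the largest ratios and 3 with the highest levels, and the 2 nearest genes of each regulator. Others were named after their values were seen. These include *taf4b*, *patl2*, *bmp15*, *KIT*, *kitlga*, *DDX6*, *TENT2*, *foxh1*, *sox19a*, *SOX2*, *EIF4E1B*, *EIF4E*, *fip1l1b*, *CYP17A1*, *STAR*, *NR5A1* and *gsdf*. Also outside the rule were *CYP19A1*, *CYP11A1*, *FSHR*, *lhcgr*, *hbaa1*, *DMRT1*, *buc*, *gdf9*, *tob1b*, *LIN28A*, *POU2F2* and the other entries of *CYP11A1*, *NR5A1*, *ZFP36L1* and *RBPMS2*. As alternatives the pseudocount was set to 0.01 or 1 FPKM, the libraries were scaled by the median of ratios or by a trimmed mean of log ratios, and the minimum was set to 5 FPKM or none. Some genes under this rule are not reported here. Code was tested on simulated data. Software was Python 3.11.15 with matplotlib 3.10.9, scipy 1.17.1, pandas 2.3.3 and numpy 2.4.6.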

Additional observations from a re-analysis of the deposited data

How the results depend on the processing

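None of the 8 regulators passed 1.4-fold under any of the pseudocounts, scalings and minimum levels tried. Their log2 ratios moved by at most 0.05. Their median of -0.02 became 0.03 with trimmed mean scaling and 0.0017 with the median of ratios, so it has no direction, and that of all genes became 0.02 with trimmed mean scaling. A value was taken as moved when it changed by over 0.1 on the log2 scale, or a count by over 1.5 times, since no replicate or read count gives a spread. Of 164 values recomputed, 12 moved, all of them counts of the 6 lists of 0 to 2 genes. No library could be left out and no paired analysis was possible because each genotype has 1 library. Genes near 1 FPKM, such as *cpeb1a*, are the least certain.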

Other observations

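Other genes of the cap-binding step were looked at after their values had been seen. Of the eIF4E family, *EIF4E2*, the 4EHP form that represses bound mRNA, was at 25.42 and 17.95 FPKM (labelled wild type first, then labelled knockout), a log2 ratio of -0.50. *EIF4E3* had the opposite direction, at 24.55 and 37.01 FPKM and a log2 ratio of 0.59. *eif4e1c*, a form found in fish, was at 93.29 and 85.27 FPKM, and *eif4eb* was at 38.0 and 37.76 FPKM. The 6 genes of the family summed to 319.0 and 303.7 FPKM. Of the 4E-binding proteins, which compete for the same site of eIF4E as 4E-T, *EIF4EBP2* was lower under the label knockout, at 55.64 and 33.64 FPKM, a log2 ratio of -0.72. *eif4ebp1* was at 81.15 and 72.68 FPKM. The 2 genes under the EIF4EBP3 name were at 90.84 and 72.81 FPKM (ENSDARG00000041607) and at 45.51 and 50.38 FPKM (ENSDARG00000054916).

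*LIN28A* (ENSDARG00000016999), a cold shock domain protein that binds let-7 precursors and mRNA, was at 74.73 and 100.11 FPKM, a log2 ratio of 0.42. Among POU genes outside the lists, *POU2F2* was at 2.4 and 5.39 FPKM. These ratios come from 1 library per genotype and have no replicate check.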
